A study of Homo sapiens with 13 samples.

Results

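Stretches of 10 kb on either side of the start sites of 10 imprinted genes, H19, KCNQ1OT1, SNRPN, PEG3, PEG10, MEST, MEG3, DLK1, PLAGL1 and GNAS, were examined in lists of peaks. The cells were H1, also named WA01, a widely used line of human embryonic stem cells. 1 hg19 start site per gene was taken, and every peak whose nearest base lay at most 10 kb from it was kept. These windows held 74 of the 136141 peaks in the 7 lists. The KO lists came from the H1 clone labelled 1-10, a homozygous knockout of ZNF263 made with Cas9, and the WT lists from unedited H1 cells. Chromatin immunoprecipitation with sequencing (ChIP-seq) had been done in KO and WT cells for 3 histone marks. The FLAG list came from the same KO clone with ectopic expression of FLAG-tagged ZNF263, a C2H2 zinc finger transcription factor. No FLAG list of WT cells was analysed here, so FLAG peaks were set against the marks of KO and of WT cells. Each arm of each comparison was 1 library and the knockout was 1 clone, so differences have no replicate check and no test between genotypes was made. The lists hold no read counts, so depth is unknown, and a missing peak may be a region just under the threshold of the peak caller.

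Imprinted genes are expressed mainly from the copy inherited from a given parent. The choice is set by control regions whose DNA is methylated on the egg-derived or the sperm-derived copy, and many of these regions lie at a promoter. H3K4me3 marks promoters that are active or poised, H3K27ac marks active regulatory DNA, and H3K27me3 is laid down by Polycomb. H3K4me3 and H3K27me3 over the same bases are called bivalent chromatin when both sit on 1 chromosome copy, and at imprinted genes they can also sit on opposite copies. The lists do not separate the copies, so these arrangements cannot be told apart and the text says only that the marks coexisted. Without an hg19 annotation, other imprinted genes, marker genes of pluripotent cells and the share of all gene starts with a given mark were not analysed here.

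Promoter sequence was looked up in RefSeq windows of the GRCh38.p14 build, which run from 250 bases before to 50 bases after a start, and 6 of the 10 genes had such windows. Their coordinates cannot be compared with the hg19 peaks. H19 had 1 window and MEG3 had 3 that began within 24 bases of each other, while SNRPN had 4, MEST and PLAGL1 5 each and GNAS 6. Whether any of these windows, the single H19 window included, holds the hg19 start was not determined. The reasons given below for showing a gene concern peaks around its hg19 start, not the printed bases. For 4 genes with contrasting peaks the window with the most CpG dinucleotides is printed 5′ to 3′, with capitals marking TGCCGC, the hexamer known for binding of the imprinting factor ZFP57, and GGGAGGA, a G-rich run of the kind reported for ZNF263, or the reverse complement of either. H19 (chr11:2001217-2001516, minus strand) is shown because only KO cells had H3K27me3 at its start, SNRPN (chr15:24954737-24955036, plus strand) because it had neither H3K27me3 nor a FLAG peak, MEG3 (chr14:100825858-100826157, plus strand) because a FLAG peak lay close by without any mark, and PLAGL1 (chr6:144008210-144008509, minus strand) because H3K4me3, H3K27me3 and FLAG all lay over its start.
H19: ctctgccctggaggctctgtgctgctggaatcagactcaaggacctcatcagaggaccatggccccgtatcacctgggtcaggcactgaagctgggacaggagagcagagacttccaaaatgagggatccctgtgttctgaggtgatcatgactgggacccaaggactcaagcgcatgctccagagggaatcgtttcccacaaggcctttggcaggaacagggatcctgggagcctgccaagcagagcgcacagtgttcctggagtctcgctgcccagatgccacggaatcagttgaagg
SNRPN: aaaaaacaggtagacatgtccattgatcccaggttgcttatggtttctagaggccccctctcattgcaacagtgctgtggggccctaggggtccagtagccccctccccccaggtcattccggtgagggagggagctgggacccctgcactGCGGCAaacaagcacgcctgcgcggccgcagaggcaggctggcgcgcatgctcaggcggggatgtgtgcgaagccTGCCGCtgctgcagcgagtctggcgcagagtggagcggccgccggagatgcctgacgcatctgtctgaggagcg
MEG3: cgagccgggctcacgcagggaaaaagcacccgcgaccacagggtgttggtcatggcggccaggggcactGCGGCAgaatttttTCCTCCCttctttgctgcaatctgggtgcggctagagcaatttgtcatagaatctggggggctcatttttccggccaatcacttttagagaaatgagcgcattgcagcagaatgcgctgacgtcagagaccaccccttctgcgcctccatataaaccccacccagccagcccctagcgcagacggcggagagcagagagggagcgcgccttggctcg
PLAGL1: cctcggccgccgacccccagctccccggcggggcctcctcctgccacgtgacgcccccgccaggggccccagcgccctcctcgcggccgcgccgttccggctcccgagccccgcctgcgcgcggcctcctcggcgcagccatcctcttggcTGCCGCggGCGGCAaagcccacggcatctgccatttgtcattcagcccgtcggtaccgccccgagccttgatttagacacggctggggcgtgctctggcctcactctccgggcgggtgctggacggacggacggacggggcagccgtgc
The printed H19 window held 6 CpG dinucleotides, the SNRPN window 18, the MEG3 window 19 and the PLAGL1 window 39. The median was 14 over the 35116 promoter windows of the table. Because the printed window was chosen for its CpG, these counts are the highest of each gene and do not describe its other windows. The 4 SNRPN windows ranged from 2 to 18 with a median of 9, and the 5 PLAGL1 windows from 2 to 39 with a median of 3. TGCCGC in either orientation matched the printed SNRPN and PLAGL1 windows at 2 places each and the printed MEG3 window at 1, and 16.7% of all windows held it. GGGAGGA matched the printed MEG3 window at 1 place and none of the other printed windows, and 18.1% of all windows held it. Counting also the windows not printed, it was in all 3 MEG3 windows, 2 of 5 for MEST, 1 of 4 for SNRPN and 1 of 5 for PLAGL1. It was in 0 of the 6 GNAS windows and not in the H19 window. A link between this run and FLAG peaks was not tested. These motifs do not overlap each other in the printed windows, and a match in 300 bases of RefSeq sequence is a description of the letters alone.

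The chromatin of the 10 genes fell into 4 patterns that were alike in KO and WT apart from H19. H3K4me3 and H3K27me3 coexisted in KO and WT at KCNQ1OT1, GNAS, PLAGL1, MEST, PEG10 and DLK1. At H19 both marks coexisted in KO cells and H3K4me3 lay without H3K27me3 in WT cells. SNRPN carried H3K4me3 with H3K27ac and no H3K27me3. The windows of H19, KCNQ1OT1 and GNAS also held H3K27ac in both genotypes. PEG3 and MEG3 carried none of the 3 marks in either genotype, and both had a FLAG peak.

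**Figure D1:**
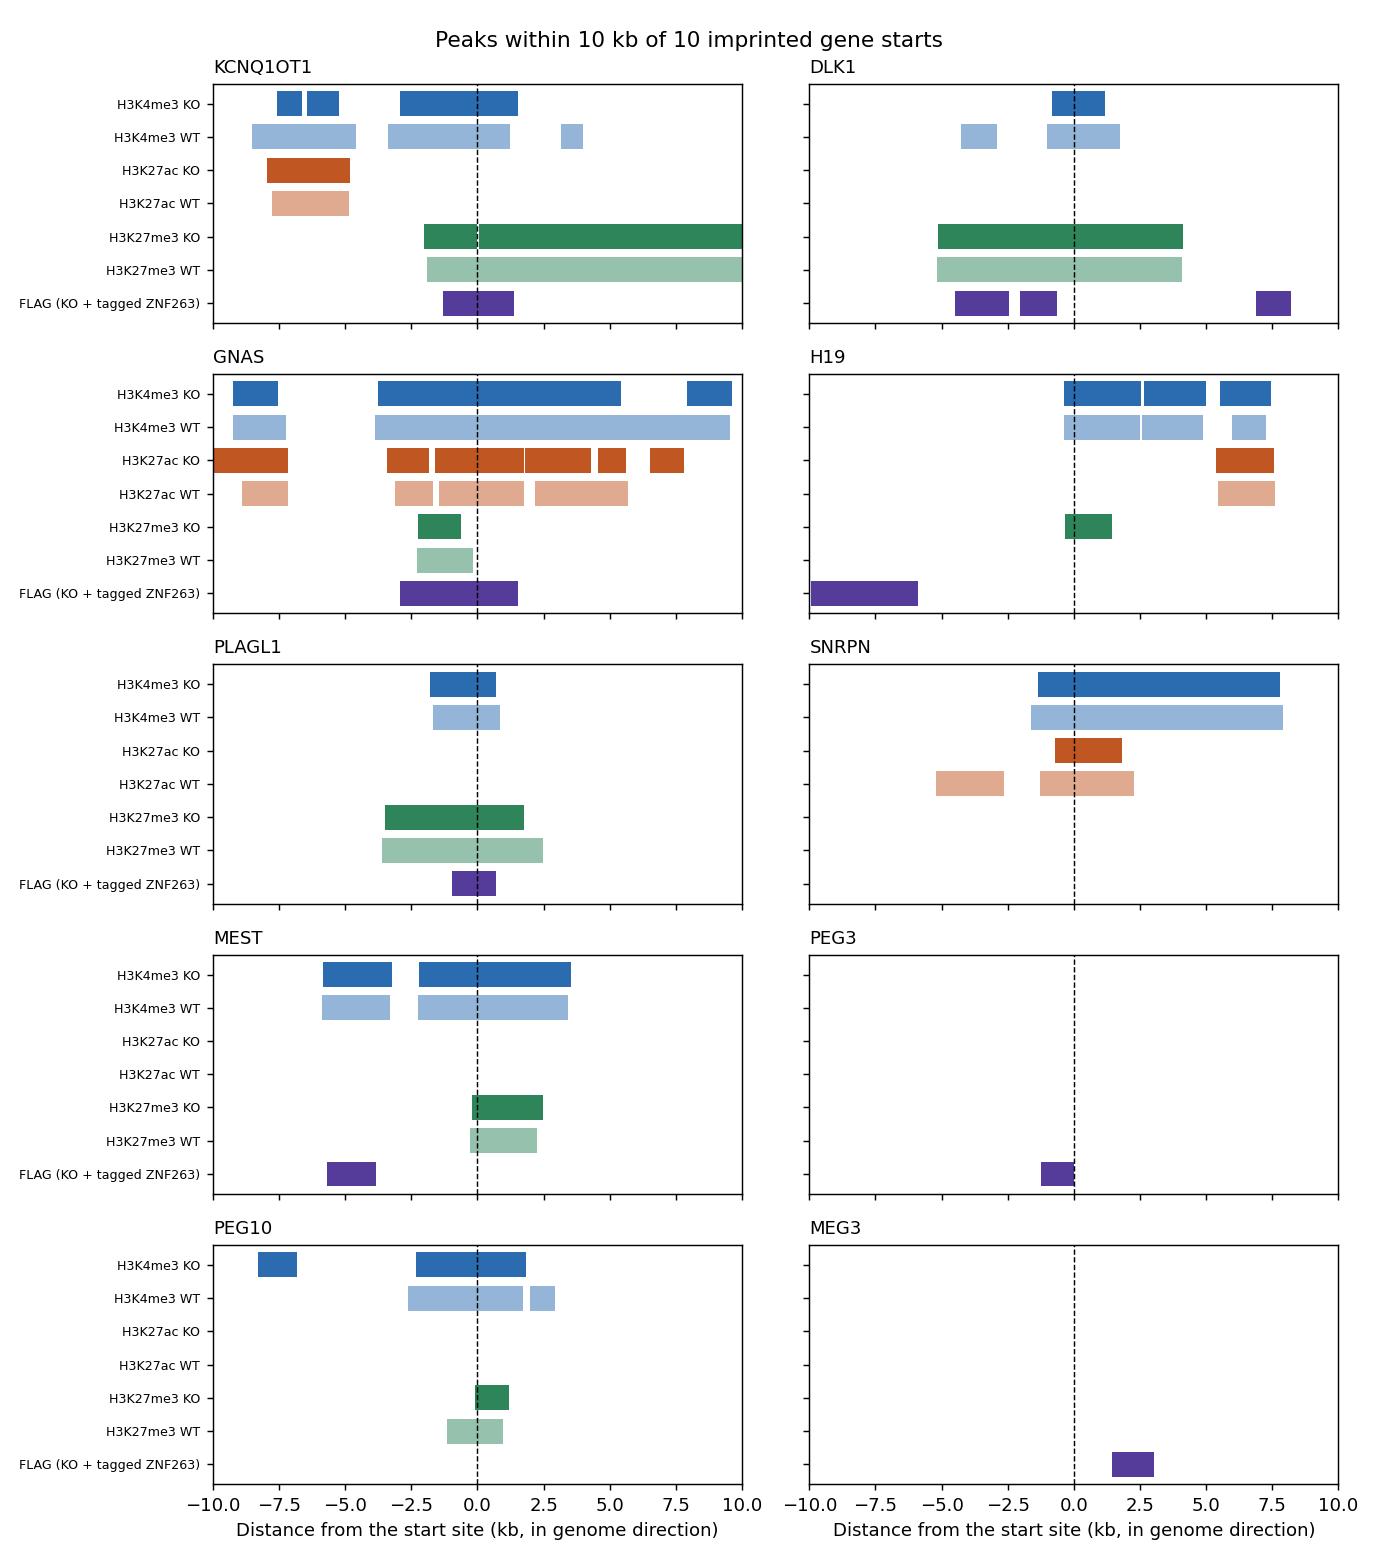
Peaks in the window of each gene, with distance from the start site in kb on the horizontal axis, running in genome direction whatever the strand, and 1 row per list. Dark bars are KO, pale bars WT and purple bars FLAG peaks, bars are cut at the window edge, and the dashed line is the start site. H3K4me3 lies over 8 of 10 starts in both genotypes, and PEG3 and MEG3 show FLAG peaks alone.

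Counted over all windows, 8 of 10 genes had H3K4me3 in KO and the same 8 in WT, and in each genotype an H3K4me3 peak lay over the start site itself in all 8. H3K27ac was present at 4 genes in KO and 4 in WT, and over the start at 2 in each, SNRPN and GNAS. H3K27me3 was present at 7 genes in KO and 6 in WT, and over the start at 6 in KO and 5 in WT. The KO count includes KCNQ1OT1, where the peak ended 1 base past the start. H3K4me3 and H3K27me3 peaks overlapped at 7 genes in KO and 6 in WT, and among peaks of the upper 50% by score at 1 gene in KO and 3 in WT. The share over the upper 50% of all peaks was not computed, so these last counts cannot be read as a difference at imprinted genes. Of the 16 KO H3K4me3 peaks in the windows 7 overlapped H3K27me3, beside 30.7% (Wilson 95% interval 30.2 to 31.3, counting error only) of all KO H3K4me3 peaks, and of the 16 in WT 8 did, beside 33.4% (32.9 to 34.0) of all WT H3K4me3 peaks. Overlap with H3K27ac was found for 6 of the 16 KO H3K4me3 peaks and 5 of the 16 in WT, beside 41.4% and 42.6% of the KO and WT lists.

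Few peaks near these genes belonged to a single genotype, and those that did were mostly weak. For H3K4me3, 1 of 16 KO peaks had no WT peak, beside 7.30% of the KO list, and 3 of 16 WT peaks had no KO peak, beside 12.3% of the WT list. For H3K27ac, 1 of 9 KO peaks was KO-only, beside 24.8%, and 1 of 8 WT peaks was WT-only, beside 24.6%. For H3K27me3, 1 of 8 KO peaks was KO-only, beside 11.0%, and 0 of 7 WT peaks was WT-only, beside 21.6%. With so few peaks these counts do not set the genes apart from the lists. Ranked by the authors' score within its own list, 1 of these 7 exclusive peaks, the WT-only H3K27ac peak near SNRPN, stood at the 43.7 percentile, and the others lay at or below the 19.4 percentile.

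KCNQ1OT1 is a long noncoding RNA that starts within KCNQ1 on the opposite strand and silences neighbouring genes on the copy that expresses it. A broad H3K4me3 peak covered its start in both genotypes, from -2.91 to 1.54 kb in KO (chromosome 11, 2718318 to 2722769) and from -3.37 to 1.23 kb in WT. Both stood at the ceiling of the score, 3100 or above, where peaks cannot be ranked. Many H3K4me3 peaks shared this ceiling, tied at a mean percentile of 78.6 in KO and 78.2 in WT. For H3K27me3 the tied percentile was 91.7 in KO and 91.6 in WT. The ceiling therefore does not mark a peak as exceptional in its list, here or at the genes below. Distances here run in genome direction, not along the RNA. H3K27me3 began on the lower-coordinate side of the start in both, at -2.02 kb in KO and at -1.91 kb in WT. In both genotypes H3K27me3 lay over the start and ran on toward higher coordinates. The KO peak over the start ended 1 base past it, so that call rests on the peak edge, while the WT peak reached to 9.50 kb. In KO it was called as a 2023 bp peak (score percentile 21.8) and, from 0.05 kb on, a 10383 bp peak (52.1), and in WT as an 11415 bp peak (72.2) followed by a 21199 bp peak at the ceiling. KO had a like block just past the window, a 22116 bp peak at the ceiling that began 10.87 kb from the start. The bases covered in the window were nearly equal, 11975 in KO and 11889 in WT, as were those within 25 kb, 26536 in KO and 26889 in WT. A FLAG peak of 2679 bp, from -1.31 to 1.37 kb, lay over the start. H3K27ac lay apart from it, from -7.94 to -4.81 kb in KO and from -7.75 to -4.85 kb in WT. Under it H3K4me3 was called as 2 peaks of 933 and 1216 bp in KO, against 1 peak of 3946 bp in WT. A weak 808 bp H3K4me3 peak at 3.18 to 3.98 kb was WT-only.

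GNAS encodes the stimulatory G protein alpha subunit within a locus that also makes imprinted transcripts from other promoters, and its window held the most histone peaks of the 10 in each genotype. Its H3K4me3 peak spanned 9183 bp in KO (chromosome 20, 57462686 to 57471868) and 13410 bp in WT (57462573 to 57475982), both at the score ceiling. The KO peak ended at 5.44 kb and a separate 1702 bp KO peak lay at 7.94 to 9.64 kb and overlapped the far end of the WT peak. H3K27ac went the other way, with 6 KO peaks over 12635 bp of the window and 4 WT peaks over 9884 bp. The H3K27ac peak over the start was similar in both, 3359 bp at the 92.2 percentile in KO and 3202 bp at the 90.3 percentile in WT. Upstream, at the edge of the window, an H3K27ac peak measured 3087 bp in KO and 1767 bp in WT. A weak KO-only H3K27ac peak of 1265 bp lay at 6.53 to 7.80 kb. H3K27me3 was narrow and did not reach the start, with 1603 bp ending 0.63 kb short of it in KO (score percentile 20.2) and 2109 bp ending 0.17 kb short in WT (51.4). The FLAG peak over this start, 4454 bp wide at the 97.9 percentile of its list, had the highest score of the 10 FLAG peaks in the windows and overlapped all 3 marks in both genotypes.

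PLAGL1 encodes a zinc finger transcription factor that inhibits proliferation and is expressed from the paternal copy, and it overlaps the imprinted noncoding gene HYMAI. H3K4me3 at its start was almost identical, 2511 bp in KO (chromosome 6, 144327744 to 144330254) and 2508 bp in WT. H3K27me3 reached beyond it on both sides, over 5257 bp in KO and 6098 bp in WT, so that all of the H3K4me3 lay within H3K27me3 in each genotype. A FLAG peak of 1666 bp spanned -0.95 to 0.71 kb. The nearest H3K27ac peak was 86.0 kb away in KO and 86.0 kb away in WT.

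MEST, a paternally expressed gene for a protein of the alpha/beta hydrolase fold, had H3K4me3 peaks at the start and at a second place 3.24 kb (KO) and 3.30 kb (WT) away toward lower coordinates. The peak at the start measured 5724 bp in KO (chromosome 7, 130128825 to 130134548) and 5680 bp in WT. H3K27me3 overlapped that peak alone, over 2700 bp in KO (score percentile 31.5) and 2547 bp in WT (20.6). The FLAG peak, from -5.70 to -3.84 kb, lay within the other H3K4me3 peak and touched no H3K27me3. Neither genotype had H3K27ac in the window.

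PEG10 is a paternally expressed gene derived from a retrotransposon, next to SGCE. Its H3K4me3 peak measured 4153 bp in KO (chromosome 7, 94283360 to 94287512) and 4341 bp in WT, at the score ceiling in both. H3K27me3 over the start was weak, 1282 bp at the 10.0 percentile in KO and 2112 bp at the 11.9 percentile in WT. Away from the start, a 1477 bp H3K4me3 peak at -8.28 to -6.81 kb was KO-only and a 939 bp peak at 1.99 to 2.93 kb was WT-only. The nearest FLAG peak was 145.6 kb away.

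DLK1 encodes a transmembrane protein related to Notch ligands and is expressed from the paternal copy, and the maternally expressed noncoding RNA MEG3 starts 99.2 kb away. H3K27me3 over the DLK1 start was strong and nearly the same, 9277 bp in KO (chromosome 14, 101188067 to 101197343) and 9262 bp in WT, at the score ceiling in both. H3K4me3 within it was narrower in KO, 2000 bp at the 45.5 percentile, against 2761 bp at the 52.0 percentile in WT. A further 1345 bp H3K4me3 peak at -4.25 to -2.91 kb was WT-only. It overlapped a FLAG peak at -4.50 to -2.46 kb, which therefore lay on both H3K4me3 and H3K27me3 in WT and on H3K27me3 without H3K4me3 in KO. Another FLAG peak at -2.05 to -0.64 kb lay on both marks in each genotype, and the last at 6.90 to 8.22 kb lay on none.

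The H19 locus makes a maternally expressed noncoding RNA from the minus strand, so its upstream side, where its control region binds the insulator protein CTCF, has higher coordinates. H3K4me3 over the start measured 2925 bp in KO (chromosome 11, 2018692 to 2021616) and 2873 bp in WT. Upstream followed a second peak, 2354 bp wide in KO and 2278 bp wide in WT, and an outermost peak, 1927 bp wide in KO and 1285 bp wide in WT. This outermost peak coincided with H3K27ac, 2173 bp in KO and 2170 bp in WT. The genotypes differed in H3K27me3. KO had a 1782 bp peak over the start, from -0.33 to 1.45 kb, which lay wholly within H3K4me3, and the nearest WT H3K27me3 peak was 38.9 kb away. With a score of 51.05 the KO peak stood at the 9.1 percentile of its list, among the low scores. A 4030 bp FLAG peak lay downstream, from -9.93 to -5.90 kb, on no mark in either genotype.

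SNRPN encodes a splicing factor subunit, is expressed from the paternal copy, and has at its promoter the imprinting centre of the Prader-Willi region. Its H3K4me3 peak was broad and at the score ceiling in both genotypes, 9172 bp in KO (chromosome 15, 25198762 to 25207933) and 9522 bp in WT. H3K27ac over the start measured 2534 bp in KO and 3540 bp in WT. A 2558 bp H3K27ac peak at -5.21 to -2.65 kb was WT-only, so the H3K27ac bases in the window came to 2534 in KO and 6098 in WT. H3K27me3 was far off, with the nearest peak 680.6 kb away in KO and 680.7 kb in WT. The nearest FLAG peak lay 235.5 kb away.

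PEG3 encodes a paternally expressed zinc finger protein, and its start had no histone peak over a wide range. The nearest H3K4me3 peak was 244.0 kb away in KO and 243.9 kb in WT, and the nearest H3K27me3 peak 348.3 kb in KO and 354.3 kb in WT. A FLAG peak of 1266 bp (chromosome 19, 57350843 to 57352108) lay over the start, from -1.25 to 0.01 kb in genome direction. It stood at the 53.9 percentile of its list. MEG3 was also without marks, with the nearest H3K4me3 peak 73.1 kb away in KO and 73.0 kb in WT. Its nearest H3K27me3 peak was 72.0 kb away in KO and 16.1 kb in WT, where the WT peak was weak, at the 6.5 percentile. A FLAG peak of 1588 bp (chromosome 14, 101293889 to 101295476) began 1.44 kb from the start, at the 69.7 percentile. Between the DLK1 and MEG3 windows lay 2 further FLAG peaks and no KO peak of any mark, and the weak WT H3K27me3 peak was the only WT histone peak there.

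**Figure D2:**
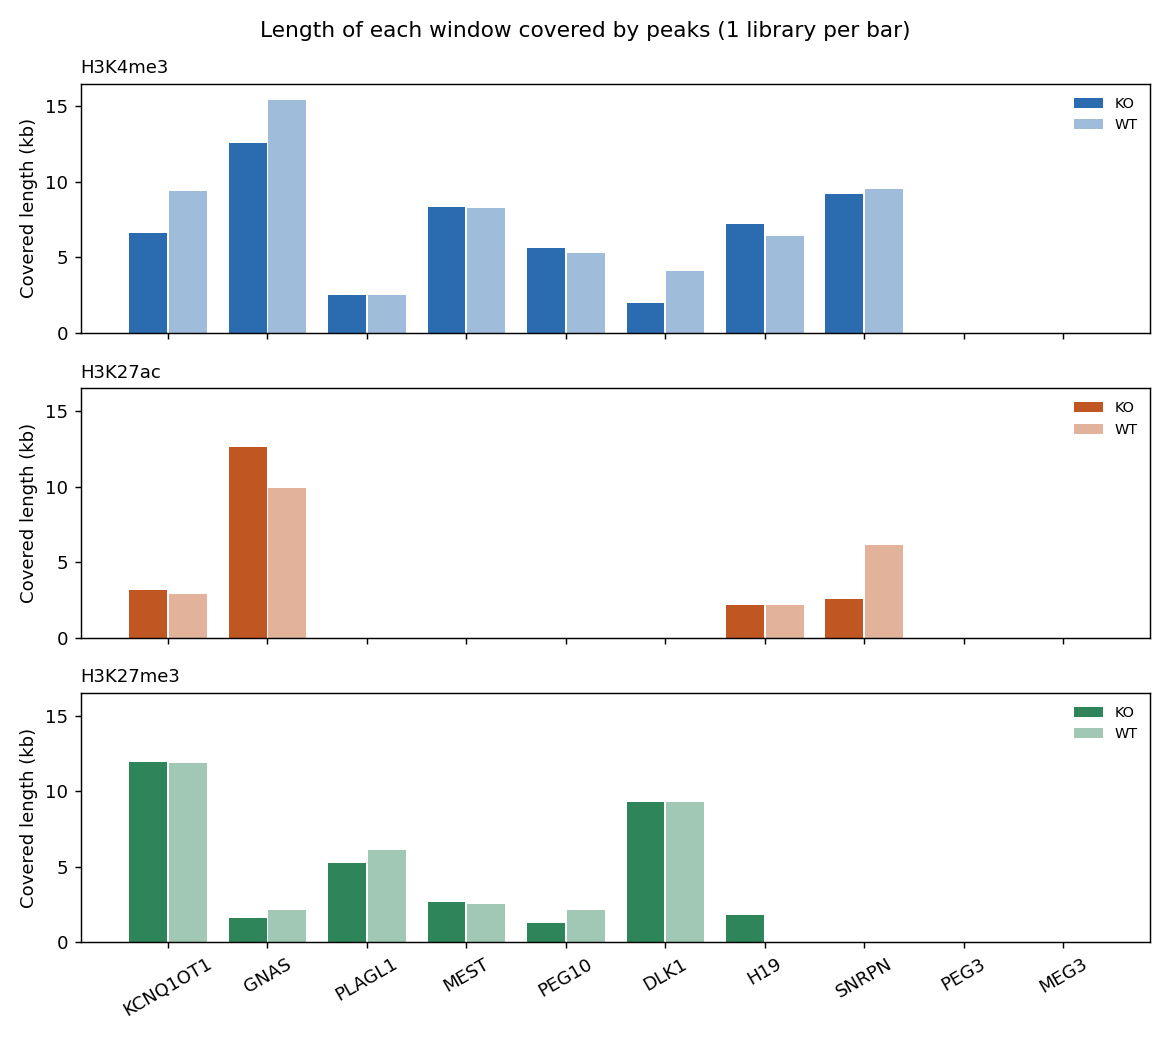
Length of each 20001 bp window covered by peaks of H3K4me3, H3K27ac and H3K27me3, in kb, for each gene, with the KO bar left of the WT bar. H3K4me3 covers less in KO at KCNQ1OT1, GNAS and DLK1, H3K27ac less at SNRPN and more at GNAS, and H3K27me3 appears at H19 in KO alone.

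Summed over the 10 windows, H3K4me3 covered 54.0 kb in KO and 60.9 kb in WT, a ratio of 0.887, beside 0.960 for the whole lists. The largest differences were at 3 genes, with 6601 bp in KO and 9356 bp in WT at KCNQ1OT1, 12597 and 15419 bp at GNAS, and 2000 and 4106 bp at DLK1. At MEST and PLAGL1 the genotypes differed by 41 and 3 bp, and H19 and PEG10 had more in KO, by 770 and 350 bp. H3K27ac covered 20.5 kb in KO and 21.1 kb in WT, a ratio of 0.972 beside 1.02 for the lists, and this ratio was 1.0496 in 25 kb windows and 1.4566 in the upper 50% of the lists by score. That near balance held opposite differences, 2751 bp more in KO at GNAS and 2534 bp in KO against 6098 bp in WT at SNRPN. H3K27me3 covered 33.9 kb in KO and 34.0 kb in WT, a ratio of 0.996 beside 0.963. Bases under both H3K4me3 and H3K27me3 came to 15394 in KO and 17337 in WT.

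Widths were then compared for peaks that overlapped exactly 1 peak of the other genotype in both directions. For the 11 such H3K4me3 pairs in the windows the median KO over WT width was 0.999, beside 0.989 for all 24423 pairs, and 8 of the 11 lay within the middle 50% of all pairs (0.929 to 1.05). The H3K4me3 pair at the DLK1 start, with 0.724, stood at the 2.14 percentile of all pairs, and the outermost H19 pair, with 1.50, at the 99.2 percentile. The 6 H3K27ac pairs had a median of 1.06 beside 1.02 for 12688 pairs, with the SNRPN start at 0.716 and the upstream GNAS peak at 1.75. Among the 5 H3K27me3 pairs the median was 0.862 beside 1.01 for 8086 pairs. PEG10 had the lowest H3K27me3 ratio, 0.607, followed by GNAS with 0.760 and PLAGL1 with 0.862, while DLK1 stood at 1.00 and MEST at 1.06.

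**Figure D3:**
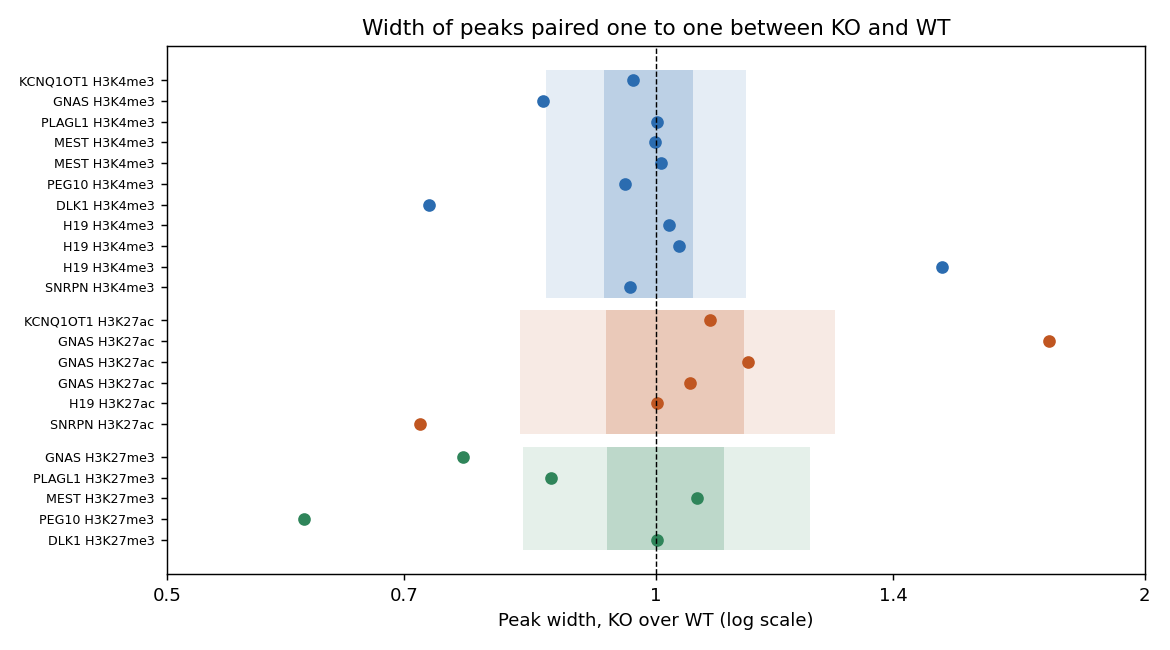
Width of each member peak in KO over that of its WT partner, on a log scale, for pairs that match one to one, 1 point per pair. Dark and pale bands hold the middle 50% and the middle 80% of all pairs of that mark, and the dashed line marks equal width. Points outside the pale bands are DLK1, H19 and GNAS for H3K4me3, GNAS and SNRPN for H3K27ac, and PEG10 and GNAS for H3K27me3.

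FLAG peaks were found near 8 of the 10 genes, all but SNRPN and PEG10. As a background, 51.1% of the centres of all KO H3K4me3 peaks and 50.7% of those of WT had a FLAG peak within 10 kb, and among the 8 genes with H3K4me3 in the window 6 did. A FLAG peak lay over the start at KCNQ1OT1, PLAGL1, GNAS and PEG3. Of the 10 FLAG peaks in the windows, 4 overlapped no mark in KO and the same number none in WT, beside 48.2% and 47.2% of the FLAG list. These were the peaks at H19, PEG3 and MEG3 and the outermost at DLK1. Both H3K4me3 and H3K27me3 lay under 4 of the 10 in KO and 5 in WT, beside 23.0% and 25.9% of the list. Of the 16 H3K4me3 peaks in the windows 5 held a FLAG peak in KO, beside 40.5% of the KO list, and 6 in WT, beside 39.3% of the WT list. The median score percentile of the 10 FLAG peaks was 60.6 and their median width 1764 bp, beside 1985 bp for the list.

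The edge of the window bore on several counts, since a 25 kb window held 20 FLAG peaks in place of 10 and 5 WT-only H3K4me3 peaks in place of 3, and a 5 kb window held 0 KO-only peaks of H3K4me3 and 0 of H3K27ac in place of 1 each. The farthest peak inside it was the WT H3K27me3 peak 9.53 kb from the KCNQ1OT1 start, and the nearest outside was a KO H3K27me3 peak 10.87 kb from the same start, 22116 bp wide and at the score ceiling. A KO FLAG peak lay just outside at DLK1, 11.76 kb from the start.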

How the data were processed

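The 13 samples form 12 groups by their titles: 6 histone libraries, 1 FLAG library, 2 libraries with an antibody against endogenous ZNF263 and 4 inputs. The analysis used the 7 deposited peak files of the histone and FLAG ChIPs. The labels of the endogenous ZNF263 libraries point to the FLAG list, and separate endogenous peaks were not analysed here. Bowtie2, Picard and hg19 are named in the submitters' processing notes. Per the file contents, peaks carry names of the MACS peak caller. The version of that caller, its input and pooling, not given in the sources used here, can shift peak edges and numbers. The score of each deposited peak is the authors' value from peak calling, of a scale not stated, and served only to rank peaks within a list. Its lowest value was 50 for H3K4me3 and 40 for H3K27ac. Coordinates are hg19, counted from 1.

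Peaks were shared when they overlapped by at least 1 bp. Overlaps, covered lengths and ranks were computed in python 3.11.15 with numpy 2.4.6 and pandas 2.3.3, Wilson 95% intervals of list shares with scipy 1.17.1, and plots with matplotlib 3.10.9. Tested on simulated data, overlaps matched a brute-force count with 0 mismatches in 1200 checks, the same peaks being checked under 3 overlap settings. All 10 genes are named, and genes, window and lists were chosen with earlier results of these data known. Alternatives were other windows, overlaps, score limits and list lengths. Promoter sequences are from RefSeq, GRCh38.p14.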

Additional observations from a re-analysis of the deposited data

How the results depend on the processing

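Over 19 results and 103 alternatives, 75 values stayed within 1.5 times, 25 moved further and 3 ratios turned to the other side of 1. Keeping only the upper 50% of peaks by score shortens the lists by construction. It left H3K4me3 at 5 genes in KO and 6 in WT, and H3K27me3 at 3 in KO and 4 in WT. Coexisting marks were left at 1 gene in KO and 3 in WT. H3K4me3 then had 0 KO-only peaks and 1 WT-only peak, H3K27ac 2 KO-only and 0 WT-only, and H3K27me3 0 KO-only and 1 WT-only. A peak whose partner fell below the score limit counts as exclusive here. Shares over all peaks were computed only for the full lists under the main overlap rule. Counts from changed lists or overlap rules, here and below, therefore have no background and describe the windows alone. The covered H3K27ac ratio, 0.972 as reported, became 1.4566 there and 1.0496 in a 25 kb window. For H3K27me3 the ratio of 0.996 became 1.0618 with lists of equal length. The cause was not tested, and the reported ratios of these marks lie close to 1. Asking for a peak over the start site left 2 genes with H3K27ac in KO and 2 in WT, and 4 with FLAG. With a 5 kb window KO-only peaks were 0 for H3K4me3 and 0 for H3K27ac. With 25 kb there were 2 KO-only H3K27ac peaks, 5 WT-only H3K4me3 peaks, 1 WT-only H3K27me3 peak and 20 FLAG peaks. Lists of equal length gave 2 KO-only peaks each for H3K4me3 and H3K27me3. Merging peaks up to 3 kb apart left 0 WT-only H3K4me3 peaks and 0 exclusive H3K27ac peaks in KO and 0 in WT, and counting peaks up to 1 kb apart as shared left 0 KO-only H3K27ac peaks. No paired analysis was possible because each arm had 1 library, and none could be left out. Depth is unknown, so a peak of low score, such as H3K27me3 at H19 in KO, cannot be told from a difference in depth.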

Other observations

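Over 50 kb on either side of the start sites, H3K27me3 at KCNQ1OT1 covered 58451 bp in KO and 57548 bp in WT, the largest H3K27me3 coverage among the 10 genes. In the same 50 kb range of GNAS, H3K4me3 covered 22214 bp in KO and 28846 bp in WT, and H3K27ac 17390 bp in KO and 12880 bp in WT. At PLAGL1 over 50 kb H3K27me3 covered 25254 bp in KO and 26007 bp in WT. PEG3 had no peak of any mark in that range in either genotype.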
